A study of Mus musculus with 8 samples.

Results

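New RNA was compared between mouse embryonic stem cells treated to deplete their degron-tagged CTCF and cells treated in the same way while overexpressing wild-type CTCF. All cells were E14, an established mouse embryonic stem cell line, and all carried the genotype CTCF AID, in which CTCF is fused to an auxin-inducible degron. The comparison took the 4 libraries given IAA (an auxin) for 12 h from the control overexpression line (n = 2) and from the line overexpressing wild-type CTCF (n = 2), out of 8 libraries in all. The other libraries were the control overexpression line without IAA (n = 2) and a line overexpressing a mutated CTCF with 12 h of IAA (n = 2), whose mutation is not given in the sources used here. They entered the fit, and their values are given beside the results. Whether each line is a single clone and how the overexpressed proteins are driven are not given in the sources used here. Neither line overexpressing CTCF has a library without IAA, so differences between the lines themselves were not tested. Cells were grown on gelatin in serum-free medium with LIF and the inhibitors PD0325901 and CHIR99021.

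CTCF is a zinc-finger protein that binds an asymmetric DNA motif and halts the ring-shaped cohesin complex as it extrudes chromatin. Pairs of such sites anchor loops and domain borders, and CTCF bound close to a start site can also act on that gene directly. In embryonic stem cells it is essential, and the degron allows it to be removed within hours so that early effects can be seen. Transient transcriptome sequencing (TT-seq) labels RNA with 4-thiouridine for a short time, here 400 µM for 15 min, fragments it and captures the labelled pieces. Its read counts therefore track ongoing synthesis more closely than the stored RNA, and they cover introns and unstable noncoding transcripts.

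The 4 libraries compared held 15671114 to 21561141 reads, recovered from the deposited normalized counts. The labels name the libraries of a group as replicates, and nothing says that they came from separate cultures, so p-values measure the spread between these libraries only. The wild-type CTCF replicates stood further apart than the replicates of either control group. A chi-square per degree of freedom of their reads was 3.35, against 1.44 for the control with IAA and 1.34 for the untreated control. Relative to the mean of the control libraries with IAA, the median gene lay 0.032 higher on the log2 scale in the first wild-type library and 0.085 higher in the second. Because of this shift, the counts of genes and of list members are given on the deposited scale and after median-of-ratios rescaling, which sets the typical gene of each library to the same level.

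The cells carried the transcripts of naive embryonic stem cells. All 30 genes of a list of naive pluripotency regulators were in the table, among them Nanog with 5172 and 5219 normalized reads in the control with IAA and 6424 and 6824 with wild-type CTCF. Of the markers of other cell types, 4 of 15 neural, 4 of 16 fibroblast and feeder, and 11 of 15 trophectoderm markers were in the table. Among those not listed in it were Sox1, Tubb3, Col1a1, Thy1, Cdx2 and Elf5, which define these types. The summed level of the listed fibroblast markers was 16981 and 17363 normalized reads in the control and 17717 and 18832 with wild-type CTCF. The neural markers summed to 8735 and 8880 against 9294 and 9266, and the trophectoderm markers to 3354 and 3323 against 3655 and 3724. Of 27 endoderm and mesoderm regulators, 17 were in the table. These summed to 14129 and 14712 in the control and 15648 and 16340 with wild-type CTCF, and their calls are given further on. Of the 16 tested neural, fibroblast and trophectoderm markers, 5 rose with wild-type CTCF (Map2, Col5a2, Vim, Ddah1 and Tfap2c), with log2 fold changes from 0.45 to 0.73. None of the 16 fell on the deposited scale in the limma fit as reported, whereas the trophectoderm factor Tfap2a passed as lower after rescaling (-0.41). With a block for replicate number in that fit 1 trophectoderm marker passed as lower. Without the first wild-type library 2 trophectoderm markers passed as lower. In bulk libraries a change in the number of cells of a type and a change in RNA per cell cannot be told apart.

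New transcription differed at many genes between the wild-type CTCF line and the control line, both with IAA, mostly by small amounts. Of 15818 tested genes, 3407 (21.5%) were higher and 1584 (10%) lower than in the control with IAA at an adjusted p of 0.05 (31.6% in all). After median-of-ratios rescaling 2547 (16.1%) were higher and 2513 (15.9%) lower, 32% in all, so higher and lower genes were nearly equal in number on that scale. On both scales 2546 genes were higher and 1584 lower, and 0 called genes changed direction between them. The median log2 fold change over all tested genes was 0.057 on the deposited scale and 0.00090 after rescaling. Few changes were large: 171 genes (1.08%) rose and 129 (0.816%) fell at least 2-fold. The count of falls that large rested on weakly transcribed genes, since 19 of the 129 had a mean of at least 50 normalized reads, against 78 of the 171 that rose. Without the second wild-type library, 1961 genes were higher and 1313 lower, without the first control library 2212 were higher, and without the second control library 933 were lower.

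The 12 genes with the largest rise and the 12 with the largest fall were chosen on the wild-type libraries and the control with IAA, from genes with a mean of at least 50 normalized reads that were called in the same direction on both scales and whose wild-type and control libraries did not overlap, as was the case for 64.4% of tested genes. The first set, all with lower values in the control with IAA than in the untreated control, included genes of cilia, matrix, protein turnover and neuronal function. Since a low control with IAA favours choice into this set, and a high one choice into the other, nothing is read from that order. Cc2d2a, a protein of the transition zone at the base of the primary cilium, had 16.7 and 25.3 normalized reads in the control with IAA and 219 and 236 with wild-type CTCF. Col27a1, a fibrillar collagen, went from 8.34 and 6.60 to 90.05 and 81.3. Both genes had been higher without IAA, at 381 and 391 for Cc2d2a and 97.8 and 90.5 for Col27a1, so Col27a1 with wild-type CTCF lay close to its untreated level and Cc2d2a below it. The change with wild-type CTCF was 3.40 ± 0.15 log2 units (SE; adjusted p = 6.0e-21) for Cc2d2a and 3.36 ± 0.23 log2 units (SE; adjusted p = 4.9e-15) for Col27a1.

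Snhg17 (ENSMUSG00000085385.7, chromosome 2, 158353700 to 158361580), a noncoding RNA that hosts snoRNAs in its introns, had the most reads of the 12. It gave 154 and 180.4 normalized reads in the control with IAA, 953 and 983 with wild-type CTCF, 732 and 694 for mutated CTCF and 1339.9 and 1315 in the untreated control. No library of one group reached those of another, and the change was 2.53 ± 0.07 log2 units (SE; adjusted p = 3.4e-27). Scn3a (ENSMUSG00000057182.15, chromosome 2, 65457118 to 65567627) encodes a voltage-gated sodium channel of neurons. Its values were 55.98 and 63.8, 289 and 310.2, 100.3 and 97.9 and 374 and 367 in the same order of groups. The wild-type libraries stood between the mutated CTCF and the untreated ones, with a change of 2.30 ± 0.12 log2 units (SE; adjusted p = 1.5e-18). Ube2cbp (ENSMUSG00000032415.14, chromosome 9, 86307306 to 86464950), a ubiquitin ligase, had 107 and 90.2 in the control with IAA, 521 and 476 with wild-type CTCF, 191 and 208 for mutated CTCF and 517 and 539.6 untreated. Here the wild-type and untreated libraries overlapped, and the change against the control with IAA was 2.33 ± 0.10 log2 units (SE; adjusted p = 5.4e-21).

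Sh3rf3 (ENSMUSG00000037990.18, chromosome 10, 58813359 to 59138916), a ubiquitin ligase with SH3 domains, had 29.8 and 27.5 normalized reads in the control with IAA, 134 and 126 with wild-type CTCF, 42.8 and 38.6 for mutated CTCF and 122 and 119 untreated. The mutated CTCF libraries lay nearer to the control with IAA here, and the direct difference between the CTCF forms was 1.65 ± 0.18 log2 units (SE; adjusted p = 9.8e-10). Map3k15 (ENSMUSG00000031303.8, chromosome X, 159988433 to 160123351), a stress kinase, had 19.06 and 27.5, 115 and 123, 51.2 and 67.2 and 142 and 123 in that order, with a change of 2.32 ± 0.19 log2 units (SE; adjusted p = 9.0e-13). It overlaps Pdha1 on the other strand. The strand setting of the counting is not given in the sources used here, so reads of such pairs cannot be told apart. The same holds for Scn3a, Ptprv, Hmgcs1, Acss2, Slc2a1, Ndufab1, Bysl, Polr2c, Cdc20, Stag2, Ldb1, Zbtb7b, Usp29, Rarb, Sfrp2, Col4a1 and Malat1, which are named further on or above. Rnf144a, another ubiquitin ligase, had 9.53 and 16.5 in the control and 103 and 126 with wild-type CTCF, and mutated CTCF at 81.5 and 109.7 overlapped the wild type.

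The remaining genes of the 12 were Man2b2, a lysosomal mannosidase, Adprhl2, which removes ADP-ribose from proteins, Det1, an adaptor of the COP1 ubiquitin ligase, and Elavl4, a neuronal RNA-binding protein. Their log2 fold changes were 2.40 (adjusted p = 1.0e-11), 2.36 (adjusted p = 2.4e-13), 2.22 (adjusted p = 1.8e-15) and 2.16 (adjusted p = 2.3e-11). Elavl4 had 16.7 and 16.5 normalized reads in the control with IAA and 42.8 and 44.5 with mutated CTCF. It had 83.1 and 72.7 with wild-type CTCF and 120.4 and 118 untreated.

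**Figure D1:**
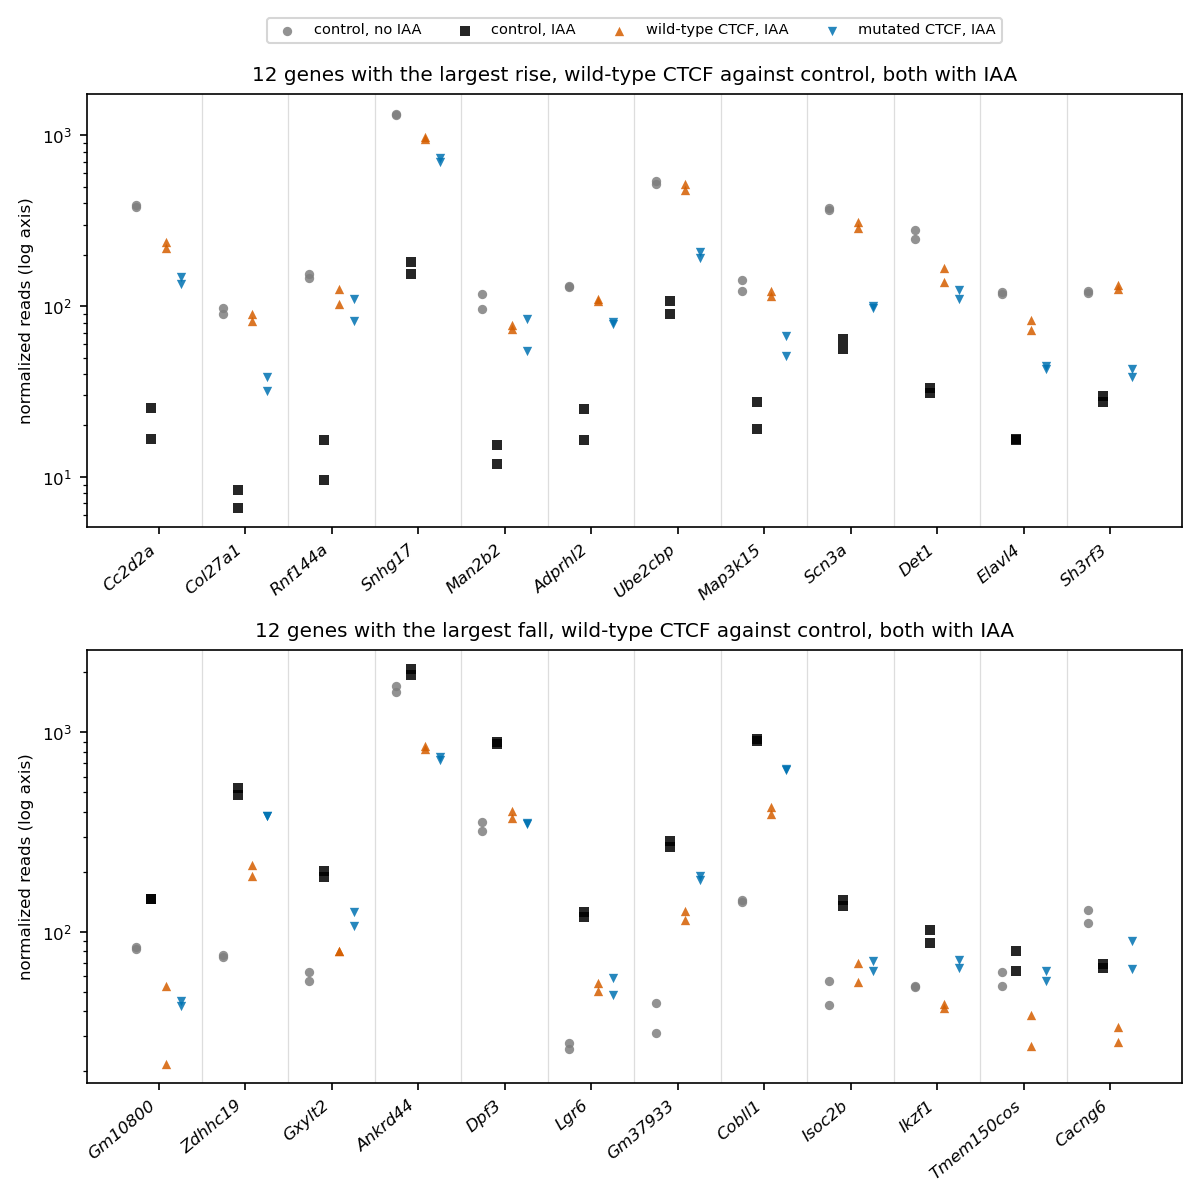
Normalized reads per library (log axis) for the 12 genes with the largest rise (top) and the 12 with the largest fall (bottom) with wild-type CTCF against the control, both with IAA. Each point is 1 library and each symbol a group, and for every gene shown the wild-type libraries do not overlap the control libraries with IAA: Cc2d2a rises from 16.7 and 25.3 to 219 and 236, and Zdhhc19 falls from 484 and 526 to 216 and 190.4.

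Promoter sequences of 4 of the 12, and of Cobll1 from the 12 genes with the largest fall, are shown because they hold the letters of a core CTCF motif. RefSeq sequences (GRCm38.p6, from 250 bases before to 50 after the start of a gene) were found for 10 of the 12 highest and 10 of the 12 lowest. Both strands were searched for 12 letters that read CC, any 3 bases, AG, any base, GGGC. Each stretch is the 150 bases just before the RefSeq start, read 5′ to 3′ on the strand of the gene, with the match in capitals. That start can differ from the outer end of the gene as annotated by the positions used elsewhere here. The stretches of Col27a1 and Cobll1 lie inside the annotated gene, and that of Det1 does in part.
Col27a1 promoter, chr4:63215262-63215411, plus strand: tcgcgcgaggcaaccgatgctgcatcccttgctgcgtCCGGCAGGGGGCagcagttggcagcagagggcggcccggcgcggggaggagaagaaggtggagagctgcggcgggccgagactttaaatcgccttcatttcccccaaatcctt
Adprhl2 promoter, chr4:126321704-126321853, minus strand: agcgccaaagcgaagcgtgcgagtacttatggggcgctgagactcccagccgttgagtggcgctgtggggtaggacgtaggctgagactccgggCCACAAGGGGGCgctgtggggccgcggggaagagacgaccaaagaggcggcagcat
Det1 promoter, chr7:78847212-78847361, minus strand: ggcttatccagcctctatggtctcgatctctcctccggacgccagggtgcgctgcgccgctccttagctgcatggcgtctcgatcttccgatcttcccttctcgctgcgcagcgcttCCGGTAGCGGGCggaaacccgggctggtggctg
Elavl4 promoter, chr4:110351912-110352061, minus strand: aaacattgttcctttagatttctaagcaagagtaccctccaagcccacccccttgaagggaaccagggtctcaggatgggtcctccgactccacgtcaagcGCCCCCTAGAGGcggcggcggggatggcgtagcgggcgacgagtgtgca
Cobll1 promoter, chr2:65238792-65238941, minus strand: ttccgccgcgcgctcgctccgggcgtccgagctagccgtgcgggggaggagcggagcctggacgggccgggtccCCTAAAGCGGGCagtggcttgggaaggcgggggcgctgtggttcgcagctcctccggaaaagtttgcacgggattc
The matches began 113 bases before the RefSeq start in Col27a1, 56 in Adprhl2, 33 in Det1, 76 in Cobll1 and 49 in Elavl4. In Elavl4 the motif lies on the strand opposite to the gene. The matches of Col27a1, Det1 and Cobll1 lie inside the annotated gene.

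Such letters were more frequent in promoters of genes that rose strongly. A gene was counted if any of its promoter sequences held the motif, and 5.87% of 11351 tested genes with a promoter sequence did. Of all 32851 promoter sequences, each counted singly, 3.21% held it, a share not comparable with that of genes. The sets that follow hold genes called on both scales. The share of genes was 8.17% among those called higher and 5.47% among those called lower. Among those that rose at least 2-fold it was 20.2% (25 of 124), and among those that fell at least 2-fold 2.67% (2 of 75). The median GC content of the promoters was 59.7% in the strongest risers, 60.3% over tested genes and 54.3% in the strongest fallers. Of 5 overlapping forms of the motif searched, each was more frequent in the strongest risers than in all tested genes. The loosest (CC, any 3 bases, AG, any 2 bases, GGC) was in 31.5% against 14.6%, and the strictest (CCA, any 2 bases, AGGGGGC) in 4.03% (5 of 124) against 0.599%. These shares describe letters in a window, and whether CTCF was bound there was not measured here.

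Among the 12 genes with the largest fall, Cobll1 (ENSMUSG00000034903.18, chromosome 2, 65088339 to 65239403), which shares a domain with the actin nucleator cordon-bleu, had 923 and 911 normalized reads in the control with IAA, 422 and 392 with wild-type CTCF, 648 and 657 for mutated CTCF and 144 and 141 untreated. All 4 groups stood apart, and the change was -1.17 ± 0.08 log2 units (SE; adjusted p = 2.2e-15). Zdhhc19, a palmitoyltransferase, followed the same order, with 484 and 526, 216 and 190.4, 379 and 383 and 75.2 and 76.7. Gm37933 (ENSMUSG00000103408.1, chromosome 3, 86142757 to 86145545), a lincRNA, had 287 and 267, 128 and 114, 182 and 191 and 30.9 and 43.96, a change of -1.19 ± 0.15 log2 units (SE; adjusted p = 2.7e-08) against the control with IAA.

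Dpf3 (ENSMUSG00000021221.15, chromosome 12, 83213745 to 83487716), a subunit of the BAF chromatin remodeller, fell from 877 and 899.7 normalized reads to 402 and 371, close to its untreated 322 and 355. Mutated CTCF gave 351 and 347, and the difference between the forms, 0.15, did not pass the threshold. Ankrd44 (ENSMUSG00000052331.14, chromosome 1, 54645340 to 54926387) is an ankyrin-repeat partner of protein phosphatase 6. It differed from these genes in that its wild-type CTCF libraries lay below both controls, as did those of mutated CTCF. It had 1949 and 2069 in the control with IAA, 1588 and 1711 untreated, 829 and 856 with wild-type CTCF, and 757 and 727 in the mutated CTCF libraries. Its change was -1.25 ± 0.05 log2 units (SE; adjusted p = 8.1e-21).

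Cacng6, a subunit of calcium channels, had 69.1 and 65.99 normalized reads in the control with IAA, 27.98 and 33.2 with wild-type CTCF, and 64.8 and 89.96 in the mutated CTCF libraries, against 110.3 and 128 untreated. Its wild-type libraries were the lowest of all 8, and the difference from mutated CTCF was -1.30 ± 0.19 log2 units (SE; adjusted p = 6.1e-07). Lgr6, a receptor for R-spondins in Wnt signalling, Gxylt2, which adds xylose to Notch, Isoc2b, Ikzf1, the transcription factor Ikaros, and the antisense transcript Tmem150cos had log2 fold changes from -1.27 for Gxylt2 to -1.13 for Tmem150cos. The predicted gene Gm10800 had the largest fall among these 12, -2.06, with 145 and 146 in the control and 21.9 and 53.5 with wild-type CTCF. Its neighbour Gm10801 also fell (log2 fold change -1.64). How the authors counted reads with several matches in the genome is not given, so the levels of this pair are uncertain.

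For each of the 12 highest and 12 lowest, the 2 nearest tested genes were read, 24 neighbours for each set. They were taken by distance alone, so both can lie on the same side of a gene. The pairs named here were picked after their values were seen. Cobll1 and Scn3a lie 217715 bases apart on chromosome 2, and with wild-type CTCF Cobll1 fell while Scn3a rose. Grb14, the adaptor gene on the other side of Cobll1, fell with it, from 75.04 and 82.5 to 52.5 and 37.4 normalized reads (log2 fold change -0.81). Rgs6, a regulator of G-protein signalling 51689 bases from Dpf3, rose from 20.2 and 18.7 to 79.6 and 77.03, a change of 1.95 ± 0.23 log2 units (SE; adjusted p = 1.1e-08). With mutated CTCF Rgs6 was at 15.7 and 14.8, and the untreated control had 72.7 and 71.5. Ptprv, a processed transcript 3221 bases from Lgr6, rose from 33.4 and 31.9 to 65.6 and 77.03 as Lgr6 fell from 126 and 119 to 50.7 and 55.6. In all, 5 of the 24 neighbours of the highest genes were called higher and 2 lower, shares close to the 21.5% and 10% of all genes. Of the 24 neighbours of the lowest genes, 8 were called lower and 6 higher, 10 lower after rescaling, against 10% of all genes lower and 21.5% higher on the deposited scale and 15.9% lower after rescaling.

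For the genes that changed at least 2-fold, the other comparisons are given side by side, and they share libraries with the one that chose these genes. The 171 that rose had a median log2 difference of 1.23 between wild-type CTCF and the control with IAA. Their median was -1.23 for the control with IAA against the untreated control, 0.10 for wild-type CTCF against the untreated control and 0.76 for mutated CTCF against the control with IAA. The 129 that fell had medians of -1.18, 0.42, -0.80 and -0.28 in the same order. Both sets held members on either side of the untreated control: 46 of the 171 were called below it and 49 above, and 64 and 7 of the 129. These sets were chosen on the same wild-type libraries and the same control libraries with IAA, so nothing is read from these values.

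Gene groups were read from 44 lists by the number of members past the threshold and by the median, beside the 21.5% higher and 10% lower of all tested genes on the deposited scale and the 16.1% and 15.9% after rescaling. The direct comparison of wild-type with mutated CTCF, in which 18.4% of genes were higher and 16.3% lower with the wild type (34.7% in all), is added for some lists. The second wild-type library carried part of many counts of higher members, and without it fewer were called: 9 in the list of architectural and looping factors, 8 Polycomb genes, 9 in that of RNA polymerase II, 3 mitosis, 2 ATF4, 5 NRF2, 2 aryl hydrocarbon receptor, 5 Nodal, activin and BMP, 4 Wnt, 11 adhesion, 3 cilium, 2 aminoacyl-tRNA synthetase and 1 immediate early gene. Without the first control library 13 genes of the RNA polymerase II list, 8 mitochondrial ribosomal proteins, 5 mitosis, 5 ATF4, 4 aminoacyl-tRNA synthetase and 3 aryl hydrocarbon receptor genes were higher. Without the second, 13 of the RNA polymerase II list, 23 cytosolic and 10 mitochondrial ribosomal proteins and 5 Nodal, activin and BMP genes were higher. In that setting 5 genes of DNA methylation and 3 of the germline rose, and 5 zinc-finger, 4 Wnt and 3 matrix genes fell. Counts of 5 or fewer members often changed when a library was left out.

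DESeq2, run on the recovered reads of the 4 libraries compared, called fewer genes, 7.95% higher and 9% lower (16.9% in all) of the 12751 to which it gave an adjusted p. Cholesterol and fatty acid synthesis then had 21 members higher and 2 lower, p53 targets 12 and 0, ribosome biogenesis 12 and 0, naive pluripotency regulators 9 and 1, glycolysis and hypoxia 9 and 1, cytosolic ribosomal proteins 9 and 1, oxidative phosphorylation 7 and 1, proteasome subunits 4 and 0, and replication-dependent histones 0 and 8. Its balance was towards lower in the lists of NRF2 (3 and 5), ATF4 (1 and 4) and the aryl hydrocarbon receptor (1 and 2). The same held for the primary cilium (3 and 5) and cohesin release (1 and 3). In limma these lists had more members higher than lower on the deposited scale, as did all tested genes (21.5% and 10%). The share higher was below that of all genes for the cilium (13.5%) and cohesin release (13.3%). It was above for NRF2 (28.6%), ATF4 (27.3%) and the aryl hydrocarbon receptor (45.5%). After rescaling limma had more lower for ATF4 (6 and 7), the cilium (4 and 9) and cohesin release (2 and 4). It had more higher for NRF2 (8 and 6) and the aryl hydrocarbon receptor (4 and 2). In DESeq2 Nodal, activin and BMP genes had 4 in either direction, and Wnt genes 2 higher and 8 lower. The counts that follow are those of limma unless DESeq2 is named.

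Genes of cholesterol and fatty acid synthesis rose most often. Of 39 tested, 28 were higher and 1 lower, and 24 and 2 after rescaling, with medians of 0.28 and 0.22. Those that rose included Hmgcs1 at the entry of the pathway, Pmvk, which makes mevalonate diphosphate, Sqle, which oxidises squalene, and Hsd17b7 and Nsdhl in later sterol steps. Sqle went from 2616 and 2565 normalized reads to 3931 and 4220.4, a change of 0.65 ± 0.04 log2 units (SE; adjusted p = 6.1e-16), and lay above all untreated libraries (2973 and 3054). Pmvk had 193 and 158 in the control with IAA, 295 and 319 with wild-type CTCF, and 297 and 309 in the mutated CTCF libraries, so the CTCF forms overlapped (0.02, adjusted p = 0.92). Scap, the escort protein of the SREBP transcription factors, rose from 303 and 307 to 511 and 531 and stood above mutated CTCF at 351 and 379. Fasn and Scd2, which make and desaturate fatty acids, had log2 fold changes of 0.52 and 0.64. The called member that fell was Acss2, which makes acetyl-CoA from acetate (-0.21). Between the CTCF forms 10 members were higher and 5 lower with the wild type.

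Most tested targets of p53, the stress-activated transcription factor, rose on both scales in limma. Of 34 tested, 20 were higher and 1 lower on the deposited scale, and 20 and 3 after rescaling, with medians of 0.26 and 0.20. Cdkn1a, the cell cycle inhibitor p21, went from 793 and 821 normalized reads to 1375 and 1350.1, against 1331 and 1305 in the untreated control and 1157 and 1161 with mutated CTCF. Its wild-type libraries lay slightly above the untreated ones, and the change was 0.76 ± 0.05 log2 units (SE; adjusted p = 1.5e-14). Btg2, an antiproliferative gene, rose from 195 and 195 to 348 and 370.2 (0.88), Ccng1, a cyclin G, by 0.60, and Mdm2, the ubiquitin ligase of p53, by 0.21. Cd80, a ligand of T cells, reached 674 and 647, above the untreated 479.8 and 494 and the control with IAA at 331 and 342. The called member that fell was Xpc, a sensor of DNA damage (-0.23). In this list 19 members were higher with wild-type than with mutated CTCF and 3 lower.

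Genes of glycolysis and the hypoxia response rose in part. Of 35 tested entries, 17 were higher and 1 lower, 15 and 3 after rescaling, with Aldoa present under 2 gene IDs. The glucose transporter Slc2a1 rose from 1335 and 1372 normalized reads to 2044 and 2191, a change of 0.64 ± 0.05 log2 units (SE; adjusted p = 3.7e-13). Ldha, which makes lactate, went from 798 and 804 to 1164 and 1245 (0.59). With mutated CTCF neither exceeded the control with IAA, at 1231 and 1322 for Slc2a1 and 685 and 792 for Ldha, and 24 entries of the list were higher with the wild type than with the mutated form, 3 lower. The pyruvate kinase Pkm rose by 0.35, and Hk2, a hexokinase that starts glycolysis, was not called (-0.02). Nuclear-encoded genes of oxidative phosphorylation had 25 of 79 higher and 2 lower, 18 and 6 after rescaling, and 12 higher without the second wild-type library. The complex I subunit genes Ndufb7 and Ndufab1 had log2 fold changes of 0.70 and 0.67.

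**Figure D2:**
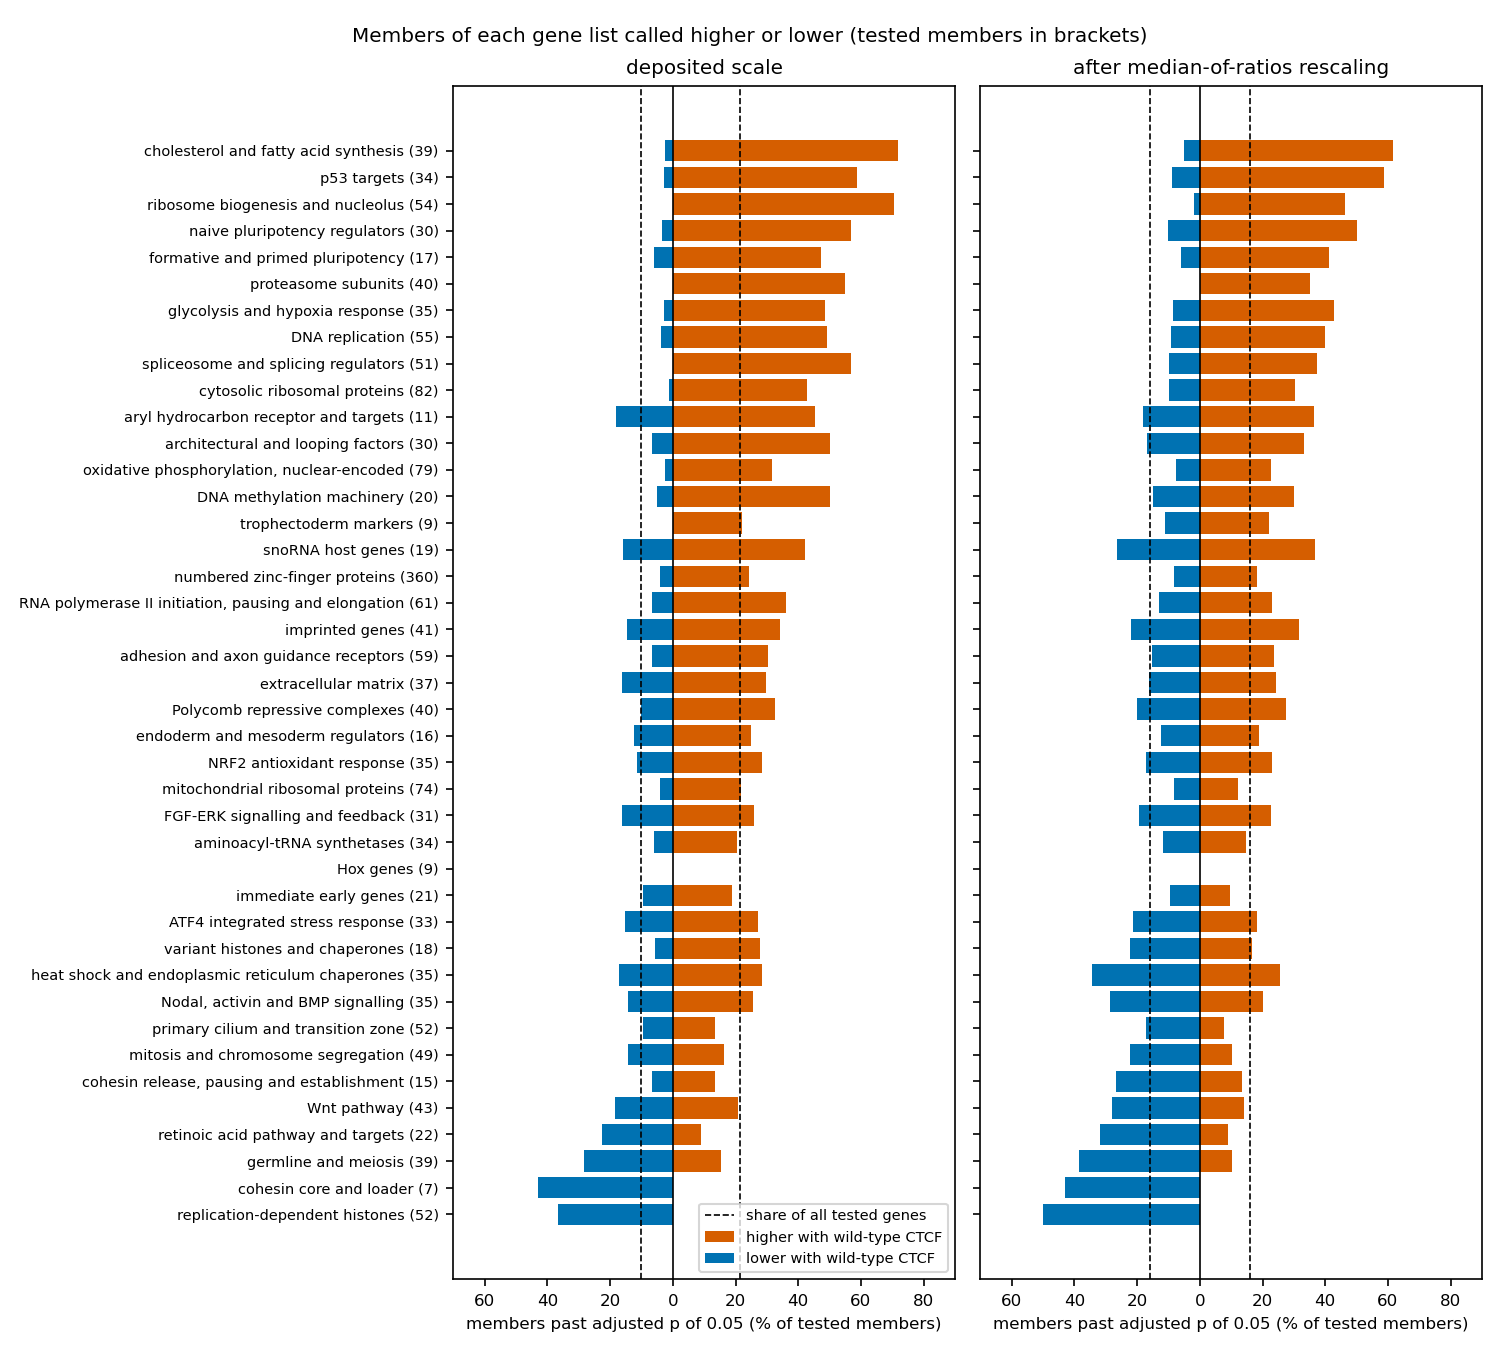
Percentage of tested members of each gene list (those with at least 7 tested members) called higher (right) or lower (left) with wild-type CTCF against the control, both with IAA, on the deposited scale (left panel) and after median-of-ratios rescaling (right panel). Dashed lines mark the share of all tested genes, 21.5% and 10% in the left panel and 16.1% and 15.9% in the right. Cholesterol and fatty acid synthesis stands at the top with 28 of 39 higher, and replication-dependent histones at the bottom with 19 of 52 lower. This order is not that of the share lower in the left panel. There the cohesin core and loader list had 42.9% lower (3 of 7) against 36.5% of the histones.

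In the list of ribosome biogenesis and nucleolus 38 of 54 rose and 0 fell, 25 and 1 after rescaling, with medians of 0.19 and 0.14. Without the second wild-type library 23 rose, and without the first control library 21. Bysl, needed for the small subunit, went from 241 and 256 normalized reads to 446 and 454, a change of 0.85 ± 0.09 log2 units (SE; adjusted p = 2.4e-10). Ncl, the abundant nucleolar protein nucleolin, rose by 0.16, from 14607 and 13561 to 15509.9 and 16055. The cytosolic ribosomal proteins depended on the library: 35 of 82 were called higher with both wild-type libraries, 56 without the first and 10 without the second, and 25 after rescaling, with 8 lower. Their median lay 0.04 above the control mean in the first wild-type library and 0.23 in the second. Rplp0 showed this spread, with 1637 and 1578 in the control and 2031 and 2566 with wild-type CTCF. Many ribosomal protein genes have processed pseudogenes that share their reads, so single values are uncertain.

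Among mitochondrial ribosomal proteins 16 of 74 rose and 3 fell, 9 and 6 after rescaling, and 4 rose without the second wild-type library. Here 2 members stood far out. Mrps2, of the small subunit, had 135 and 163 normalized reads in the control with IAA, 483 and 606 with wild-type CTCF, 378 and 476 for mutated CTCF and 591 and 603 untreated, a change of 1.86 ± 0.10 log2 units (SE; adjusted p = 4.8e-18). Mrpl23, of the large subunit, was weaker, with 2.38 and 6.60 in the control and 36.7 and 27.8 with wild-type CTCF (2.70), and was chosen after its value was seen. The other called members of the list had log2 fold changes of -0.47 to 0.54. Of these Mrpl28, at 0.54, was no longer past the threshold after rescaling (adjusted p = 0.056).

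Of the proteasome subunits that passed the threshold, all rose, by small amounts. Of 40 tested, 22 rose and 0 fell, 14 and 0 after rescaling, and the log2 fold changes of all 40 lay between 0.03 and 0.52 on the deposited scale, where the median gene was at 0.057. Without the second wild-type library 9 rose and 0 fell, and without the first control library 12 rose. Psmd6, of the regulatory lid, rose from 524 and 529 normalized reads to 752 and 761, with mutated CTCF at 770.0 and 802 and the untreated control at 757 and 786. Its change was 0.52 ± 0.06 log2 units (SE; adjusted p = 2.5e-08), and the difference between the CTCF forms (-0.06) did not pass the threshold. Among spliceosome genes the balance in limma was towards higher, 29 of 51 with 0 lower (19 and 5 after rescaling, with 11 higher without the second wild-type library and 17 without the first control library). DESeq2 called 6 of them higher and 3 lower. Prpf19, of the catalytic spliceosome, went from 730.2 and 685 to 847 and 963 (0.35). In the list of RNA polymerase II initiation, pausing and elongation, 22 of 61 rose and 4 fell, 14 and 8 after rescaling, while DESeq2 called 3 higher and 4 lower. Its leading gene was Polr2c, a core subunit, from 200.1 and 217 to 345 and 365 (0.77).

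In limma more DNA replication genes rose than fell, while DESeq2 called 4 higher and 3 lower. Of 55 DNA replication genes 27 rose and 2 fell, 22 and 5 after rescaling, and 14 rose without the second wild-type library and 15 without the first control library. Rrm2, the ribonucleotide reductase subunit, went from 953 and 922 normalized reads to 1277 and 1444, a change of 0.53 ± 0.06 log2 units (SE; adjusted p = 1.8e-09), and E2f1, which drives entry into S phase, from 417 and 426 to 560.4 and 578 (0.43). Both reached the untreated levels of 1281 and 1299 and 546 and 487. Of 49 genes of mitosis and chromosome segregation 8 rose and 7 fell, 5 and 11 after rescaling, with 0 and 7 in DESeq2. Without the first control library 4 fell, and without the second 3. Pttg1, securin, fell from 384 and 381 to 293 and 312 (-0.34), and the activator of anaphase Cdc20 rose from 476 and 488 to 547 and 612 (0.26). Against mutated CTCF, 22 members of the mitosis list were lower with the wild type and 1 higher.

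Replication-dependent histone genes, whose transcripts lack poly(A) tails and are made in S phase, had no member called higher with both wild-type libraries in limma. Of 52 tested, 19 fell and 0 rose, 26 and 0 after rescaling, with medians of -0.23 and -0.29. The 2 wild-type libraries differed, with a median of -0.36 against the control mean in the first and -0.05 in the second. The untreated libraries had medians of -0.22 and -0.22 on that reference. For wild-type CTCF against the untreated control the median of the list was -0.009, unlike the larger difference of H4c9 below. Without the first wild-type library 6 members fell and 2 rose, without the second 29 fell and 0 rose, and without the first control library 9 fell. H4c9 fell from 729 and 769.9 normalized reads to 412 and 494, below the untreated 691 and 721, a change of -0.73 ± 0.07 log2 units (SE; adjusted p = 4.1e-10). The linker histone H1f4 went from 666 and 662 to 409 and 514 and was lower still with mutated CTCF (313 and 322). Against mutated CTCF 17 members were higher with the wild type and 0 lower. These genes are near-identical copies, so the share of reads given to each is uncertain. In the list of variant histones and chaperones 5 of 18 rose and 1 fell, 3 and 4 after rescaling, led by Daxx (0.57), the chaperone of H3.3.

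**Figure D3:**
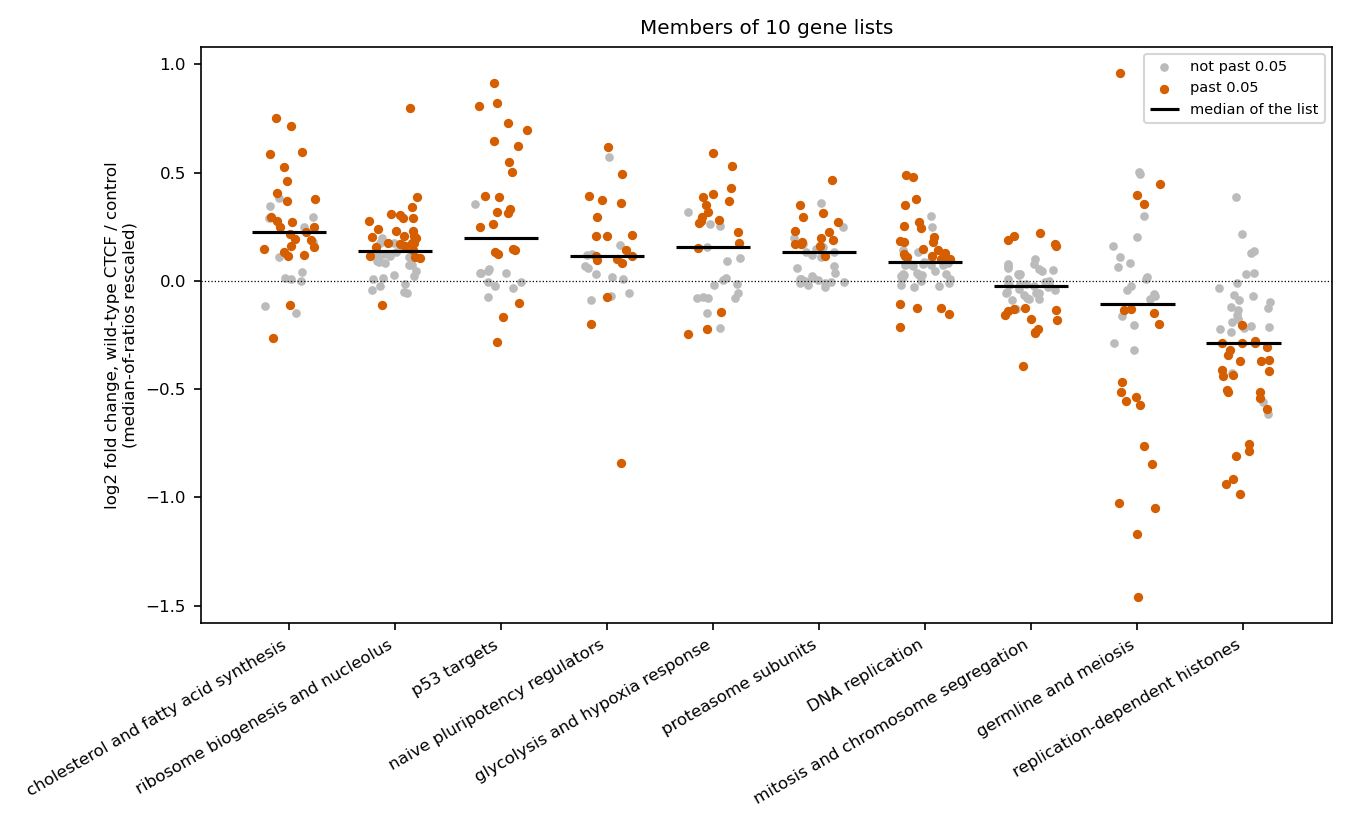
Log2 fold change (wild-type CTCF against control, both with IAA, after median-of-ratios rescaling) of every tested member of 10 gene lists, each point 1 gene, with the median of each list as a bar. Points past the threshold are orange and others grey; the medians run from 0.22 for cholesterol and fatty acid synthesis to -0.29 for replication-dependent histones.

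Among the proteins that work with CTCF, the cohesin core and loader genes changed by small amounts, and those called all fell. The share lower was 42.9% on either scale, against 10% of all genes and 15.9% after rescaling. Of the 7 core and loader genes 3 fell and 0 rose on either scale: Stag1, from 45808 and 46632 normalized reads to 39401 and 39102 (-0.24), its paralog Stag2, from 6542 and 6621 to 5634 and 5933 (-0.19), and the loader Nipbl, from 13150.4 and 13125 to 12151 and 12379.9 (-0.10). The ring subunits Smc1a, Smc3 and Rad21 had log2 fold changes of 0.06, 0.03 and -0.01 and were not called. Stag1 lay far above its untreated 28799 and 29972 in both groups with IAA, with wild-type CTCF between the depleted and untreated levels. In the list of cohesin release, pausing and establishment 2 of 15 rose and 1 fell, 2 and 4 after rescaling, with 1 higher without the second library of either group. Those that rose included Esco2, the S-phase acetyltransferase of cohesin, from 1378 and 1268 to 1595 and 1627 (0.28). Other architectural and looping factors rose more often, 15 of 30 with 2 lower and 10 and 5 after rescaling. Ldb1, which bridges enhancers and promoters, went from 462 and 479.5 to 629 and 735 (0.53), and Zbtb7b from 108 and 101 to 156 and 194 (0.72).

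Chromatin repressors gave a mixed picture. Of 40 Polycomb genes 13 rose and 4 fell, 11 and 8 after rescaling. The chromodomain genes Cbx2 and Cbx8, readers of H3K27 methylation, rose by 0.85 and 1.05. Cbx2 had 83.4 and 67.1 normalized reads in the control with IAA and 121 and 153 with wild-type CTCF, and Cbx8 was weakly transcribed, at 10.7 and 10.9987 against 23.6 and 23.5. Scml2, a Polycomb protein, fell from 3083 and 3176 to 2015 and 2103, towards the untreated 1740.2 and 1752, a change of -0.60 ± 0.04 log2 units (SE; adjusted p = 5.3e-14). Among genes of DNA methylation 10 of 20 rose and 1 fell, 6 and 3 after rescaling. The cytidine deaminase Apobec1 fell from 719 and 718 to 448 and 438, below the untreated 601 and 593, while mutated CTCF stayed at 727 and 742, a difference between the forms of -0.73 ± 0.07 log2 units (SE; adjusted p = 1.4e-11). Of 360 numbered zinc-finger proteins 87 were higher and 15 lower, 66 and 30 after rescaling. The shares were 24.2% and 4.17%, then 18.3% and 8.33%, so the share lower was below that of all genes (10% and 15.9%) on both scales. Without the first control library 57 were higher. Zfp398 led them, from 389.5 and 445 to 826 and 811 (0.97).

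Of the 30 naive pluripotency regulators 17 rose and 1 fell, 15 and 3 after rescaling. Mycn rose from 373 and 398 normalized reads to 608 and 625, above all untreated libraries (532 and 503), and Tcl1, a cofactor of AKT, from 242 and 282 to 346 and 422. Dppa3, which protects maternal methylation, was the member that fell, from 100.1 and 114 to 65.6 and 57.8, and was at 20.1 and 35.3 without IAA, a change of -0.79 ± 0.22 log2 units (SE; adjusted p = 0.006). In the formative and primed list 8 of 17 rose and 1 fell, 7 and 1 after rescaling. Foxd3 went from 44.1 and 31.9 to 68.2 and 80.2 (0.96) and the receptor Epha2 from 609 and 610.4 to 956 and 1002 (0.68). Of 16 endoderm and mesoderm regulators 4 rose and 2 fell, 3 and 2 after rescaling, with 2 higher without the second wild-type library and 0 lower without the first control library in limma. Eomes rose by 0.77, while Gata4 and Lefty1 fell (log2 fold changes -0.52 and -0.63).

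Germline and meiosis genes fell more often than they rose. Of 39 tested, 11 fell and 6 rose, 15 and 4 after rescaling. Stra8, the switch to meiosis, had 903 and 908 normalized reads in the control with IAA, 427 and 409.7 with wild-type CTCF, 235 and 220.5 for mutated CTCF and 365 and 397 untreated. Wild-type CTCF brought it near the untreated level and mutated CTCF below it, and its change against the control with IAA was -1.11 ± 0.08 log2 units (SE; adjusted p = 1.6e-14). Mael and Ddx4, of the piRNA pathway, and Meiob, a meiotic recombination factor, differed from Stra8 in that their mutated CTCF libraries lay above the wild-type ones. Mael fell from 147 and 195 to 77.8 and 94.1 with 186 and 173 for mutated CTCF. Ddx4 fell from 191 and 201 to 111 and 114 with 176 and 182 for mutated CTCF. In Piwil4 the forms overlapped: it fell from 97.7 and 111.1 to 53.3 and 50.3, with mutated CTCF at 56.4 and 48.4. Meiob, which was chosen after its value was seen, had 21.4 and 13.2 against 6.12 and 5.35, and mutated CTCF at 36.6 and 34.6 was above both (-2.44 between the forms). Those that rose included Taf7l, a TFIID subunit of germ cells (1.01). In the list 13 members were lower with the wild type than with mutated CTCF and 9 higher.

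Imprinted genes, expressed from 1 parental copy and often controlled through CTCF sites, rose in 14 of 41 cases and fell in 6, 13 and 9 after rescaling. Slc38a4, an amino acid transporter, had 423 and 429 normalized reads in the control with IAA, 973 and 1019.5 with wild-type CTCF, 319 and 379.6 for mutated CTCF and 507 and 572 untreated. Its wild-type libraries were the highest of all 8, and the change was 1.22 ± 0.08 log2 units (SE; adjusted p = 1.0e-15). The noncoding RNAs Meg3, Rian and Mirg, neighbours in 1 imprinted domain, rose together. Meg3 went from 986 and 1001 to 1603 and 1609 (0.69), Rian from 4062 and 4263 to 5857 and 6089 (0.52) and Mirg from 603 and 615 to 994 and 1044 (0.74). In each of them the wild-type libraries also exceeded the untreated ones. Dio3 in the same domain fell (-0.84), at 57.2 and 35.2 and 27.1 and 22.5, as did Peg3 and Usp29, another pair of neighbours (-0.40 and -0.59). Rian, Dio3, Peg3 and Usp29 were added after their values were seen.

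In the aryl hydrocarbon receptor list 5 of 11 rose and 2 fell, 4 and 2 after rescaling. Cyp1a1, the xenobiotic oxidase that this receptor induces, had 161 and 144 normalized reads in the control with IAA, 292 and 313 with wild-type CTCF, 29.3 and 31.6 for mutated CTCF and 9.19 and 9.48 untreated. With wild-type CTCF it thus lay further from the untreated level, a change of 0.99 ± 0.18 log2 units (SE, adjusted p = 5.8e-05). Ahrr, the repressor of the receptor, followed with 192 and 209, 268 and 280.3, 64.8 and 73.2 and 38.4 and 47.4. Retinoic acid genes fell in 5 of 22 cases and rose in 2, and in 7 and 2 after rescaling. Rarb, a receptor and target of retinoic acid, fell from 605 and 597 to 403 and 408 (-0.57), while Meis2 rose from 5938 and 6192 to 8322 and 8254 (0.45).

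The FGF-ERK list had 8 of 31 higher and 5 lower, 7 and 6 after rescaling. The ligand Fgf4 rose from 983 and 1082 normalized reads to 1516 and 1691, a change of 0.63 ± 0.06 log2 units (SE; adjusted p = 1.0e-11), and the phosphatase Dusp4, chosen after its value was seen, fell from 29.8 and 29.7 to 11.4 and 10.7 (-1.35). In the Nodal, activin and BMP list 9 of 35 rose and 5 fell, and 7 and 10 after rescaling. Id4 rose from 139 and 133 to 212 and 264 (0.79), whereas the antagonist Lefty1 fell from 127 and 93.5 to 62.9 and 78.1. Inhbb rose by 0.55 and was not past the threshold after rescaling (adjusted p = 0.06). Wnt genes rose in 9 of 43 cases and fell in 8, 6 and 12 after rescaling, with the antagonist Sfrp2 lower (204 and 184 to 126 and 125). The medium held CHIR99021, which activates this pathway, in all groups.

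The other stress lists had members moving both ways. Of 35 NRF2 genes 10 rose and 4 fell, 8 and 6 after rescaling, led by the glutathione transferase Gstm1 (0.72). Of 33 ATF4 genes 9 rose and 5 fell, 6 and 7 after rescaling, with Ddit4 higher (0.44) and Atf3 lower (-0.48). Without the first wild-type library 1 ATF4 gene fell, and without the second control library 2. Heat shock and endoplasmic reticulum chaperones had 10 of 35 higher and 6 lower, 9 and 12 after rescaling, so that 34.3% were lower on that scale against 15.9% of all genes. The small heat shock gene Hspb1 rose from 409 and 390.5 normalized reads to 559 and 662 (0.61), and Herpud1, of endoplasmic reticulum stress, fell from 269 and 316 to 202 and 206 (-0.51). Aminoacyl-tRNA synthetases rose in 7 of 34 cases and fell in 2, 5 and 4 after rescaling, and immediate early genes rose in 4 of 21 cases and fell in 2, 2 and 2 after rescaling.

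At the cell surface a few genes had large changes. Among adhesion and axon guidance genes 18 of 59 rose and 4 fell, 14 and 9 after rescaling. The integrin Itga9 went from 10.7 and 10.9987 normalized reads to 62.9 and 37.4 and had 133 and 134 untreated, a change of 2.06 ± 0.23 log2 units (SE; adjusted p = 4.9e-09). Its wild-type libraries were unequal, and both lay well below the untreated ones. The guidance cue Ntn1 rose from 2023 and 2066 to 3806 and 4009, above mutated CTCF (2762 and 2819) and the untreated control (2423 and 2446). Among extracellular matrix genes 11 of 37 rose and 6 fell, 9 and 6 after rescaling. Col11a1 rose from 104 and 86.9 to 171 and 160.5 (0.80) and the basement membrane collagen Col4a1 from 65.5 and 71.5 to 107 and 122 (0.73). Of the genes of the primary cilium and its transition zone, Cc2d2a included, 7 of 52 rose and 5 fell, 4 and 9 after rescaling.

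Antisense genes, lincRNAs and genes of the unverified annotation class TEC had median changes below that of protein-coding genes. They were also more weakly transcribed, with median levels of 35.8, 37.3 and 29.8 normalized reads against 385, so their shares of calls are not comparable with those of protein-coding genes. Of 13129 protein-coding genes 17.9% were higher and 16.4% lower after rescaling. Of 649 antisense genes 5.08% were higher and 13.7% lower, of 820 lincRNAs 10% and 13.8%, and of 206 TEC genes 2.91% and 15.5%. Their medians after rescaling were -0.14, -0.11 and -0.21, against 0.013 for protein-coding genes. On the deposited scale lincRNAs had 12% higher and 11% lower. Of 31 small nuclear RNA genes 12 fell and 0 rose, 13 and 0 after rescaling, with medians of -0.54 and -0.32 against the control mean in the wild-type libraries. On the same reference the untreated libraries had medians of -0.49 and -0.48, near those of wild-type CTCF, and the mutated CTCF libraries -0.26 and -0.49. Rnu11, of the minor spliceosome, fell from 127 and 128 normalized reads to 73.4 and 79.2 (-0.73). The median of the class was -0.43 on the deposited scale and -0.48 after rescaling. After a correction for GC and length, described below, it was -0.25, with 10 genes lower and 0 higher. Small nuclear RNA genes are short and multicopy, so reads per gene are uncertain. Long noncoding genes that rose included Malat1, from 15410.0 and 14578 to 18655 and 20958 (0.40), and Mir17hg, the host of an oncogenic microRNA cluster (0.37), both chosen after their values were seen. Of 19 snoRNA host genes, Snhg17 included, 8 rose and 3 fell, 7 and 5 after rescaling.

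The change differed with gene-body composition and length, and the spread over GC content was wider in the second wild-type library. From the quintile of genes lowest in GC (up to 41.1%) to the highest (from 50.7%), the median after rescaling went from -0.053 to 0.092. In the first wild-type library the medians of these quintiles were -0.0038 and 0.099 on the deposited scale, and in the second 0.016 and 0.22. The longest quintile of genes (from 74464 bases) had a median of -0.063 after rescaling, with 14.8% higher and 31.8% lower, genes of 7224 to 16987 bases had 0.075, and the shortest quintile had 0.017. After a correction for GC and length, 2669 genes were higher (16.9%) and 2257 lower (14.3%), 31.2% in all. Cholesterol and fatty acid synthesis then had 25 of 39 higher and 3 lower, p53 targets 19 and 1 of 34, ribosome biogenesis 23 and 1 of 54, and replication-dependent histones 27 of 52 lower and 0 higher. This correction also centres the libraries, so its counts are read against those after rescaling. Mitochondrial ribosomal proteins went from 9 higher and 6 lower after rescaling to 6 and 6, variant histones and chaperones from 3 and 4 to 5 and 4, and immediate early genes from 2 and 2 to 1 and 3. In the other lists with called members the more frequent direction was the same as after rescaling, with 14 higher and 0 lower for proteasome subunits, 14 and 4 for glycolysis and hypoxia, 22 and 4 for DNA replication, and 3 and 8 for ATF4 genes.

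**Figure D4:**
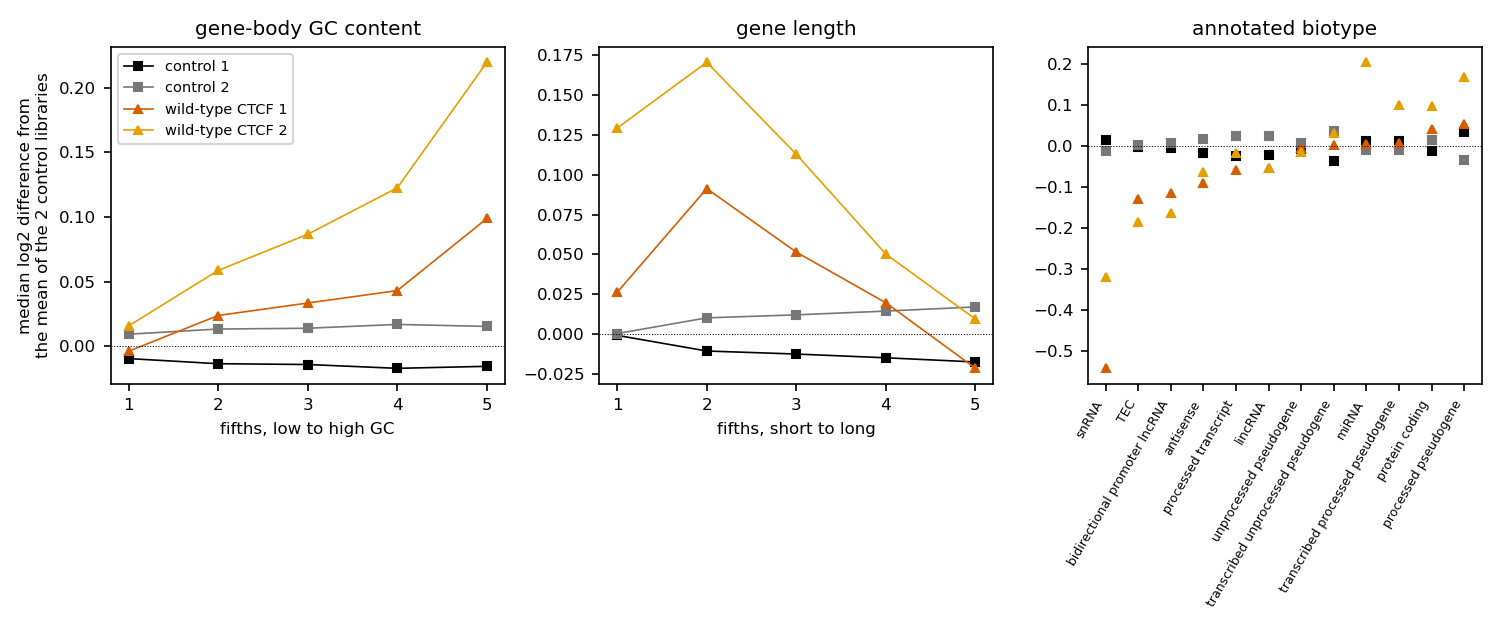
Median log2 difference from the mean of the 2 control libraries with IAA (deposited scale) in each of the 4 libraries, for quintiles of genes by gene-body GC content, quintiles by gene length, and annotated biotypes. The 2 wild-type libraries rise with GC, from -0.0038 to 0.099 and from 0.016 to 0.22, while the control libraries stay near 0; small nuclear RNA genes lie lowest, at -0.54 and -0.32.

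Chromosome 6 stood apart from the other chromosomes. Of its 780 tested genes 100 were higher and 152 lower on the deposited scale, and 73 (9.36%) and 215 (27.6%) after rescaling, with a median of -0.089. The medians of the other autosomes after rescaling lay between -0.053 (chromosome 13) and 0.055 (chromosome 17). Both wild-type libraries gave a median below 0 on chromosome 6, -0.048 and -0.020, and no other chromosome had a negative median in both. After the correction for GC and length the median was -0.073, with 83 genes higher and 197 lower. Against mutated CTCF the median difference on chromosome 6 was 0.0026. Nanog lies on this chromosome and rose, and Gxylt2, among the 12 lowest, lies on it too.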

How the data were processed

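TT-seq measured newly made RNA in 8 libraries, 2 per group. The deposited values are a signal per gene: from the deposited values, read counts divided by 1 factor per library. Per the submitters' processing notes the tools were Trim Galore, STAR, featureCounts and DESeq2, with build mm10; versions, annotation and strand setting are not given in the sources used here. In the libraries of wild-type CTCF and both control groups all values were whole multiples of 1 step per library (100% within 0.01 of a whole number), which gave their reads. Gene positions, GC content and length came from GENCODE M21, in which 16917 of 16940 gene IDs were found.

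Genes with a mean of at least 10 (15818) were tested with limma 3.58.1 (R 4.3.3) on log2(value + 1) over all 8 libraries, with 1 coefficient per group, 4 residual degrees of freedom, a mean-variance trend and Benjamini-Hochberg adjustment. The added 1 makes fold changes of weakly transcribed genes come out smaller. Adjusted p-values come from this fit, or where so named from the same model on the rescaled values, at a threshold of 0.05. Count tests on the recovered reads of the 4 libraries compared used edgeR 4.0.16 (quasi-likelihood), which called 4859 genes, and DESeq2 1.42.0. The wild-type and mutated CTCF comparison shares the wild-type libraries.

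Named were the 12 highest and 12 lowest changes among genes called in the same direction on both scales, with a mean of at least 50 and libraries that did not overlap. In each list up to 3 called members with the largest change and such a mean were picked, with further members for their role. Some of those picked, such as Chtf18, Etv4 and Eif1ad, are not mentioned above. Single members named as the exception of a list, neighbours of named genes and genes of noncoding classes were picked after their values were seen. Members and lists were chosen with earlier results of these data known. The targeted gene itself is not reported here.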

Additional observations from a re-analysis of the deposited data

Results flagged for a closer look

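For 7 of the named genes, new transcription with wild-type and with mutated CTCF lay on opposite sides of the control with IAA. Both changes were past the threshold, and the difference between the 2 forms passed the threshold in limma. The effects share the control libraries, and the difference does not use them. Col4a1 differed by 1.94 log2 units (0.73 with the wild type and -1.21 with the mutated form, adjusted p of the difference = 7.6e-11). Slc38a4 differed by 1.52 (1.22 and -0.29, adjusted p = 9.9e-19), and Cd80 by 1.31 (0.97 and -0.34, adjusted p = 9.3e-17). Hspb1 differed by 0.84 (0.61 and -0.24, adjusted p = 1.8e-09). Of the aryl hydrocarbon receptor genes, Cyp1a1 differed by 3.27 (0.99 and -2.29, adjusted p = 1.4e-17) and Ahrr by 1.98 (0.45 and -1.53, adjusted p = 2.9e-14). Meis2 differed by 1.22 (0.45 and -0.77, adjusted p = 6.0e-27). In each of these genes both wild-type libraries lay above both mutated CTCF libraries. The way the genes were chosen favours that order, so nothing is read from it. What sets these genes apart was not tested.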

How the results depend on the processing

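Of 136 genes picked by the naming rules, 93 were past the threshold in the same direction in every alternative run, and 0 reversed. Not all of the 136 are mentioned above, and rescaling was part of the choice of the 24 with the largest changes. Median-of-ratios rescaling moved the median log2 fold change to 0.00090 and the genes lower to 2513, and the GC and length correction, chosen after seeing the data, moved the median to 0.0061. Without a mean-variance trend 2379 genes were called (1590 higher, 789 lower), and 3263 between the CTCF forms. On recovered reads edgeR gave 2418 lower, and DESeq2 called 2161 (1014 higher), 125 of them at least 2-fold changed. That count, 300 in the fit as reported, was 116 with a pseudocount of 10 and 97 with a minimum mean of 50. Leaving out 1 library gave 3274 to 4622 genes called, 1961 to 3431 higher, 933 to 1313 lower, 290 to 374 at least 2-fold changed and 3969 to 4875 between the CTCF forms; a lone library was assumed to vary like the other groups. The replicate numbers did not pair the samples (correlations of deviations from -0.022 to 0.028); with a replicate block 5532 genes were called, 3773 higher and 1759 lower, and with the block and rescaling 5082, of which 2514 lower. Count tests between the CTCF forms were not run. The cause of these differences was not tested. With 2 libraries a group, small changes in weakly transcribed genes may have been missed at this depth, and no detection limit was measured.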
